A study of Mus musculus with 3 samples.

Results

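The genes described are 10 core genes of the Notch pathway: the receptor genes Notch1, Notch2 and Notch3, the ligand genes Jag1, Jag2 and Dll1, the nuclear mediator gene Rbpj, and the basic helix-loop-helix genes Hes1, Hes6 and Hey1. They were chosen by symbol, and all 10 had a probe set that the platform annotation gives to a single gene, out of 19938 such genes. Notch receptors are cleaved when a ligand on a neighbouring cell binds them, and the freed intracellular part joins Rbpj in the nucleus to switch on genes such as Hes1 and Hey1, which encode repressors. In the developing mouse pancreas this pathway holds back endocrine differentiation, and Hes1 represses Neurog3, the gene of the endocrine progenitor factor. Fbw7, the protein of Fbxw7, is the part of a ubiquitin ligase that recognises its targets, the intracellular part of Notch among them.

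RNA of 3 pools of sorted mouse pancreatic cells, from adult mice over 6 weeks old on a C57BL/6 background, was measured on 1 array each. Beta cells came from 3 untreated MIP-GFP mice with wild-type Fbw7 (Fbw7 +/+), in which green fluorescence marks cells that use the insulin promoter. Fbw7-deleted ductal cells came from 6 mice with floxed Fbw7 (Fbw7 F/F), and wild-type ductal cells from 6 mice with Fbw7 +/+. Both kinds of ductal mice also carried the Cre transgene Ck19-CreERT and the reporter R26-LSL-YFP. They were given tamoxifen on 5 days in a row, and cells were taken 7 days later, so that the cytokeratin 19 promoter set which cells turned on the yellow reporter and, in F/F mice, lost Fbw7. Cell type, reporter and tamoxifen thus all separate the beta cell array from the ductal ones, and pooling leaves no value for a single mouse. No group had a replicate array, so no difference below has a replicate check and none was tested, and the number of arrays limits the precision. Fewer cells of a type and less RNA per cell cannot be told apart in such pools.

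Levels are log2 intensities, and a level counts as above the floor where it exceeds its array's median over the probe sets of a single gene (5.30 in beta cells, 5.24 in Fbw7-deleted and 5.23 in wild-type ductal cells). The labelled cell types were checked on marker lists. In beta cells 8 of 14 beta cell markers were above the floor, against 4 in each ductal array, while 20 of 21 acinar markers were above it in beta cells too. Other islet markers were as prominent there: all 7 were above the floor, with a summed linear intensity of 5705 beside 3727 for the beta cell markers, and Gcg and Sst, the glucagon and somatostatin genes, read 11.00 and 11.04, against 11.04 for the insulin gene Ins2. Of 18 duct markers, 17 were above the floor in Fbw7-deleted and 15 in wild-type ductal cells, with summed intensities of 8357 and 3973. All 15 mesothelial markers were above it in both ductal arrays (summed intensities of 15220 in Fbw7-deleted and 15284 in wild-type cells), and 9 of 15 in beta cells (796). The deletion could not be checked: 1 Fbxw7 probe set (10492826) read 4.95 on all 3 arrays, the other (10499093) read 7.00 in beta cells, 5.71 in Fbw7-deleted and 6.32 in wild-type ductal cells, and no source used here says whether these probes lie in the floxed part.

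Rbpj was the 1 member that read differently on all 3 arrays. Rbpj encodes the DNA-binding protein that cleaved Notch needs to reach its target genes; without Notch the same protein recruits repressors. Its level was 6.09 in beta cells, 7.40 in Fbw7-deleted ductal cells and 8.04 in wild-type ductal cells (probe set 10521913). All 3 levels were above the floor, beta cells were lowest and wild-type ductal cells highest. Rbpj was thus at -0.64 in Fbw7-deleted against wild-type ductal cells on the log2 scale, a 1.56-fold lower level, and 613 of 10035 genes (6.11%) differed by as much or more in that direction. In beta cells Rbpj was 3.88-fold lower than in wild-type and 2.49-fold lower than in Fbw7-deleted ductal cells. A second Rbpj probe set (10521911) read 3.37 on all 3 arrays, below the floor, and so gave no second measurement of the difference.

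Notch2 encodes 1 of the receptors. Notch2 read 6.40 in beta cells, against 7.62 in both Fbw7-deleted and wild-type ductal cells, and those ductal values were identical to the last deposited digit. Beta cells were therefore 2.34-fold lower than either ductal array (-1.23 on the log2 scale), and no difference was resolved between the ductal arrays. Rbpj and Notch2 were the only members at least 2-fold apart in any comparison.

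The promoters of Rbpj and Notch2 are shown because only these members passed 2-fold. RefSeq promoter windows of GRCm38.p6, from 250 bases before to 50 bases after a gene's start, were found for 8 of the 10 members, with 11 starts in all, and none was listed for Hes1 and Hey1. Capitals mark TGGGAA, the core letters bound by Rbpj, or TTCCCA, the same on the other strand.
Rbpj, first start, chr5:53590096-53590395, plus strand: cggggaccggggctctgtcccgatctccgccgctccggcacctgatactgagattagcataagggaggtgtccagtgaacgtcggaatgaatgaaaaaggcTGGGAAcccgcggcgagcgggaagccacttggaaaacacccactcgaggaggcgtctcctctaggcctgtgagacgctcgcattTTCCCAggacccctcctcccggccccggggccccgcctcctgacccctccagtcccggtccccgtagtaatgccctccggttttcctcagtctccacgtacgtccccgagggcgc
Notch2, chr3:98013288-98013587, plus strand: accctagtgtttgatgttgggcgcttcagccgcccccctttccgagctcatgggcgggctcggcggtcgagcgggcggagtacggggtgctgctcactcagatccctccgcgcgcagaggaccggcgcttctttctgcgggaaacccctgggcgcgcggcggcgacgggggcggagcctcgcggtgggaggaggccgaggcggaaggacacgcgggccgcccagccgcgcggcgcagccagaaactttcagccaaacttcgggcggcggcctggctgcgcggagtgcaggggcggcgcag
The first Rbpj window held 2 matches, 1 on each strand, and the window of its second start, which overlaps the first, held 1 of these again. No TGGGAA lay in the Notch2 window or in those of the other 6 members in the table, so 2 of 11 member windows (18.2%) held it, against 8397 of all 32851 windows (25.6%). The letters CACNAG, searched on both strands as the N-box that Hes repressors bind, were in 5 of 11 member windows (45.5%), that of Notch2 included, and in 42.5% of all windows. Both shares are descriptions of letters in these windows.

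The other receptor genes were close together on the 3 arrays. Notch1, whose product is a well-studied Fbw7 target, read 5.91 in beta cells, 5.97 in Fbw7-deleted ductal cells and 5.91 in wild-type ductal cells. It was the 1 member higher in Fbw7-deleted than in wild-type ductal cells, by 0.06 on the log2 scale (1.04-fold), and its beta and wild-type ductal values were identical. Notch3, a receptor gene known for its use in mural cells of blood vessels, read 5.44 on all 3 arrays, a level above the floor on each.

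No ligand gene passed 2-fold either. Jag1, a Serrate-type ligand, read 6.06 on all 3 arrays, and Dll1, a Delta-type ligand, 5.36 on all 3. Both levels were above the floor, Dll1 narrowly. Jag2, the other Serrate-type ligand, read 5.14 in beta cells against 4.64 in both ductal arrays. These Jag2 levels were all below the floor, so no fold is given and Jag2 entered none of the comparisons.

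The 3 helix-loop-helix genes each had identical values on both ductal arrays. Hes1, the best known Notch target in the pancreas, read 6.59 in beta cells against 6.92 in both Fbw7-deleted and wild-type ductal cells. This difference of -0.33 on the log2 scale did not keep its sign under other scalings: it lay between -0.40 and 0.37 against wild-type and between -0.39 and 0.29 against Fbw7-deleted ductal cells. Hes6, whose product antagonises Hes1 in mouse cells, read 5.36 on all 3 arrays, just above the floor. Hey1, another Notch-induced repressor, read 5.96 in beta cells against 5.38 in both ductal arrays. Hey1 was the 1 member above the floor that was higher in beta cells, by 0.58 on the log2 scale. Its difference stayed between 0.51 and 0.77 under quantile normalization, centring and removal of a trend on level, against either ductal array.

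**Figure D1:**
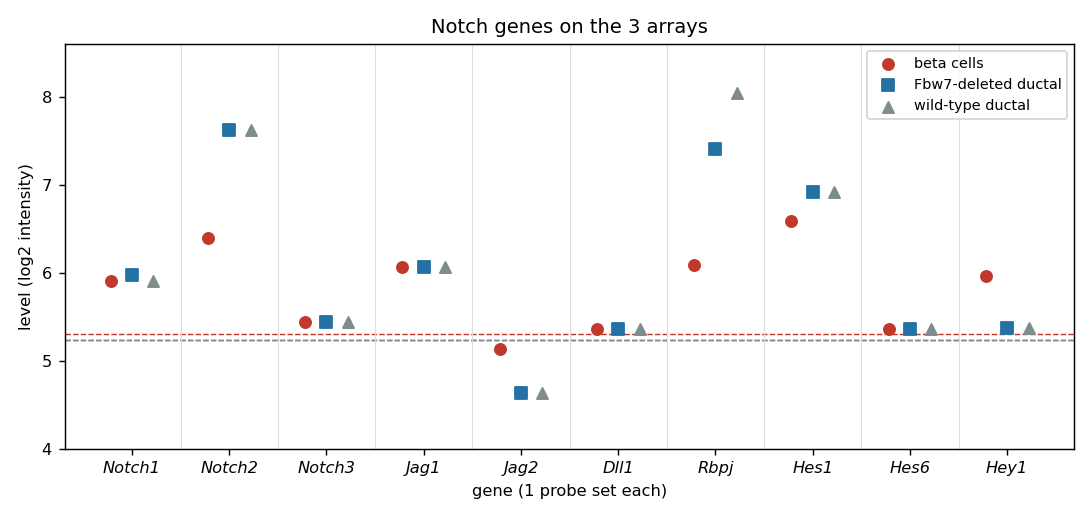
Level of each of the 10 genes (log2 intensity) on the beta cell, Fbw7-deleted ductal and wild-type ductal arrays, 1 point per array, with dashed lines at the floor of each array. Rbpj runs from 6.09 in beta cells over 7.40 in Fbw7-deleted to 8.04 in wild-type ductal cells, Notch2 is lower in beta cells, Jag2 is below the floor throughout, and Notch3, Jag1, Dll1 and Hes6 have the same value 3 times.

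Set against all genes, more of the members had identical values on the ductal arrays. Such values were also more frequent among all genes at the low levels where most members lie. The share was 62.2% at mean levels from 5 to 5.5 and 65.4% from 5.5 to 6. Between Fbw7-deleted and wild-type ductal cells 0 of the 9 members above the floor were 2-fold apart, where 3.25% of 10035 genes were. The members' median difference was 0 and so was that of all genes. In the same comparison 7 of these 9 members (77.8%), and with Jag2 8 of 10, had exactly the same value on both arrays, as had 48.2% of all genes; 1 member was lower and 1 higher, where 35.4% of genes were lower and 16.4% higher. The RMA summary used by the authors can return the same number for several arrays, so an identical value means that no difference was resolved, and does not show that the levels were equal.

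In beta against wild-type ductal cells 2 of 9 members (22.2%) were at least 2-fold lower and 0 were 2-fold higher, where 25.8% of 11139 genes were lower and 6.37% higher. Against Fbw7-deleted ductal cells it was again 2 of 9 lower, beside 23.0% of 11095 genes lower and 5.13% higher. The share of members called was thus near that of all genes. Counting any difference, 3 of 9 members were lower, 1 higher and 5 identical in beta against wild-type ductal cells, where 53.8% of genes were lower, 27.3% higher and 18.9% identical. In beta against Fbw7-deleted ductal cells 4 were lower, 1 higher and 4 identical, beside 51.3%, 27.8% and 20.9% of genes. These comparisons share the beta cell array, and Notch2 has the same value on both ductal arrays. The background moved with the scaling: after quantile normalization 17.9% of genes were 2-fold lower and 10.6% higher in beta against wild-type ductal cells, and 16.8% and 9.40% against Fbw7-deleted ones. Between the ductal arrays the shares were 1.81% lower and 1.43% higher as deposited, and 0.915% and 1.39% after quantile normalization.

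**Figure D2:**
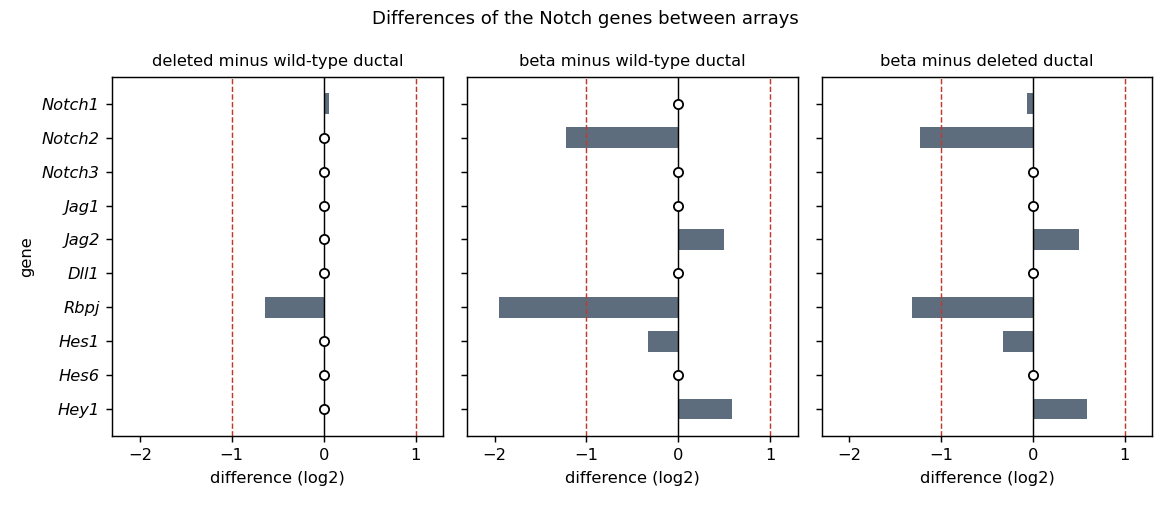
Difference in log2 level of each gene for Fbw7-deleted minus wild-type ductal, beta minus wild-type ductal and beta minus Fbw7-deleted ductal cells. Open circles mark genes with identical values on both arrays and dashed lines mark 2-fold; Notch2 and Rbpj pass the line in both beta cell comparisons, and no gene does between the ductal arrays.

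Over the 3 arrays the members fell into few patterns. Notch3, Jag1, Dll1 and Hes6 were identical on all 3, a pattern held by 17.6% of the 11304 genes above the floor on at least 1 array. Notch2 and Hes1 had identical ductal values and a lower beta cell value (17.0% of genes), and Hey1 identical ductal values and a higher beta cell value (14.8%). Jag2 was below the floor throughout and is not among these genes. Rbpj was in the order beta cells, Fbw7-deleted, wild-type ductal cells from low to high with all values different, as 24.5% of genes were. Notch1, with beta and wild-type ductal values alike and only the Fbw7-deleted array apart, had a pattern found in 1.91% of genes, though by a step of 0.06.

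How far a gene was from its peers depended on level. Of genes with a mean ductal level from 5 to 5.5, where Notch3, Dll1, Hes6 and Hey1 lie, 62.2% were identical on both ductal arrays. The share was 65.4% from 5.5 to 6 (Notch1), 53.5% from 6 to 7 (Jag1 and Hes1) and 33.9% from 7 to 8 (Notch2 and Rbpj). In beta against wild-type ductal cells, genes with a mean level from 7 to 8 had a median difference of -1.20 and 55.9% were 2-fold lower, while from 6 to 7 the median was -0.37. Notch2 and Rbpj, at mean levels of 7.01 and 7.07, sat at the border of these ranges. Notch2 at -1.23 was close to the upper range's median and Rbpj at -1.95 was below both medians. With a smooth trend on level removed, Notch2 was at -0.36 and Rbpj at -1.05 in beta against wild-type ductal cells, and at -0.50 and -0.74 in beta against Fbw7-deleted ones.

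**Figure D3:**
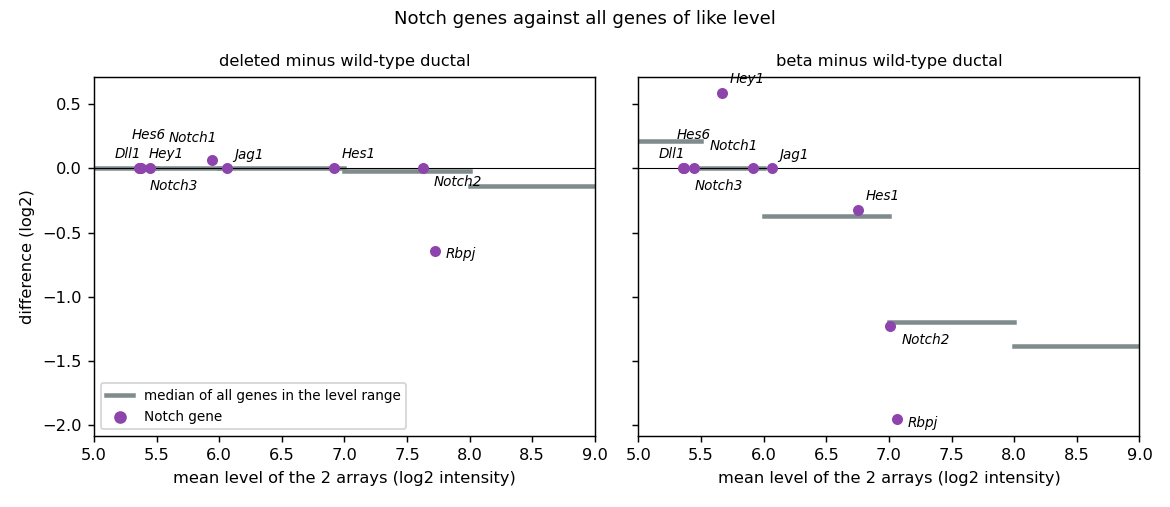
Difference in log2 level against the mean level of the 2 arrays compared, for the 9 genes above the floor (points) and as the median of all genes in each range of level (grey bars, the last one covering all levels from 8). In beta minus wild-type ductal cells Notch2 (-1.23) lies beside the median of -1.20 and Rbpj (-1.95) below it; between the ductal arrays Rbpj (-0.64) is the gene farthest from the median.

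Other scalings left the directions of Rbpj as they were. Between Fbw7-deleted and wild-type ductal cells Rbpj was at -0.43 after quantile normalization and at -0.65 with arrays centred. In beta against wild-type ductal cells it was at -1.31 after quantile normalization, whereas Notch2 was at -0.50 there. Taking the mean of both Rbpj probe sets, of which 1 is below the floor, brought Rbpj to -0.98 in that comparison.

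**Figure D4:**
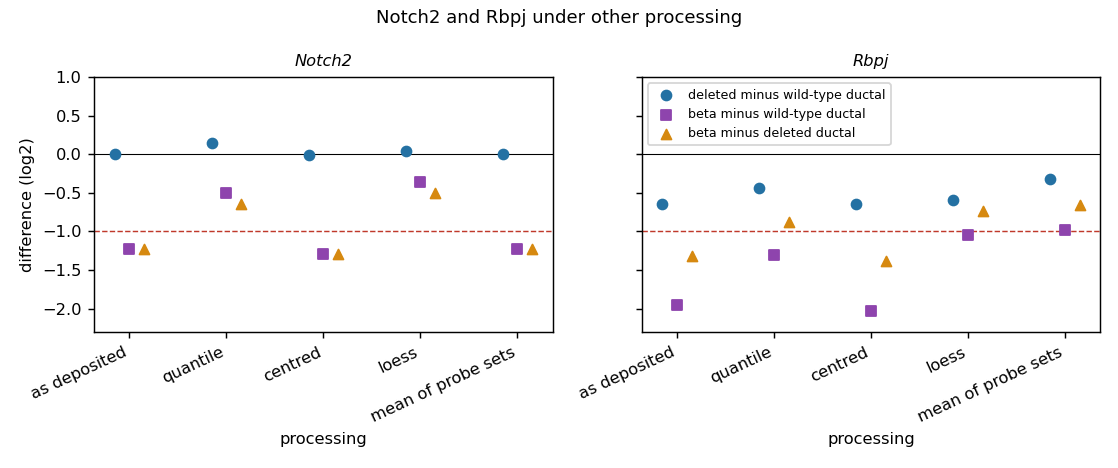
Difference in log2 level of Notch2 and Rbpj in each comparison as deposited, after quantile normalization, with arrays centred, with a loess trend on level removed, and with a gene's probe sets averaged; the dashed line is 2-fold lower. Notch2 is past 2-fold in the beta cell comparisons as deposited and centred. It is at -0.50 or -0.36 against wild-type ductal cells after quantile normalization or trend removal. Notch2 has 1 probe set, so averaging leaves its value as deposited.

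A list of 47 other pathway genes, 45 of them measured, put the members in context. Between Fbw7-deleted and wild-type ductal cells 32 were above the floor, of which 0 were 2-fold apart, 11 were lower, 5 higher and 16 identical, with a median of 0; over all genes 35.4% were lower, 16.4% higher and 48.2% identical. In beta against wild-type ductal cells 9 of 35 were at least 2-fold lower and 3 at least 2-fold higher, where 25.8% of all genes were lower and 6.37% higher; the median was -0.02 beside -0.11 for all genes. Against Fbw7-deleted ductal cells the counts were also 9 and 3 of 35, beside 23.0% and 5.13% of all genes. The 3 higher genes were Dlk1, Hes2 and Hes7 in both comparisons. Hes2 and Hes7 entered only through their beta cell level, so that they had to be higher, and the count of 3 is no support for a direction. The excess of lower over higher genes depended on the scaling. After quantile normalization 4 were lower and 4 higher against wild-type ductal cells, and 5 lower and 4 higher against Fbw7-deleted ones. With the trend on level removed the counts were 4 lower and 5 higher, and 5 lower and 3 higher. The median against wild-type ductal cells turned to 0.23 after quantile normalization and to 0.21 after trend removal.

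The genes that cut the receptors stood lower in Fbw7-deleted than in wild-type ductal cells, as Rbpj did. Of 8 such genes above the floor 6 were lower, 0 higher and 2 identical, where 35.4% of all genes were lower and 48.2% identical. Their median was -0.32, beside 0 for all genes, -0.02 for genes of mean level from 7 to 8 and -0.14 for those from 8. It was -0.16 after quantile normalization and -0.26 with the trend on level removed. Adam10, the main protease of the outer cut, read 5.80 in beta cells, 7.63 in Fbw7-deleted and 8.29 in wild-type ductal cells. Adam17, a related protease, read 5.53 in beta cells, 7.31 in Fbw7-deleted and 7.98 in wild-type ductal cells. Both had the order of Rbpj, and their differences between the ductal arrays were -0.66 and -0.67. Psen2, a presenilin that can form the catalytic core of gamma-secretase, named here after its values were seen, read 6.60 in beta cells, 6.32 in Fbw7-deleted and 7.06 in wild-type ductal cells. It was 1.66-fold lower in the deleted cells, and its difference of -0.46 in beta against wild-type ductal cells turned to 0.26 after quantile normalization.

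The same genes were lower in beta cells, where 6 of 8 were at least 2-fold below wild-type ductal cells, with a median of -1.76. Over all genes 25.8% were 2-fold lower. The share was 29.2% at mean levels from 6 to 7, where most of the cleavage genes lie. It was 55.9% from 7 to 8 (Adam10) and 61.4% from 8 (Psenen). After quantile normalization 4 of 8 cleavage genes were 2-fold lower, with a median of -1.25. With the trend on level removed it was again 4 of 8, with a median of -0.97. Psenen, a gamma-secretase subunit, was 6.31-fold lower (7.13 in beta cells against 9.78 in wild-type ductal cells), and its difference of -2.66 was -1.11 with the trend removed. Adam10 was 5.64-fold and Adam17 5.48-fold lower. Ncstn, the subunit that admits substrates, was 4.30-fold, Aph1a, a scaffold subunit, 2.67-fold and Furin, the protease of receptor maturation, 2.15-fold lower. Against Fbw7-deleted ductal cells 6 of 8 were again 2-fold lower, beside 23.0% of all genes, Psenen by 5.29-fold, Adam10 by 3.57-fold and Adam17 by 3.43-fold.

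**Figure D5:**
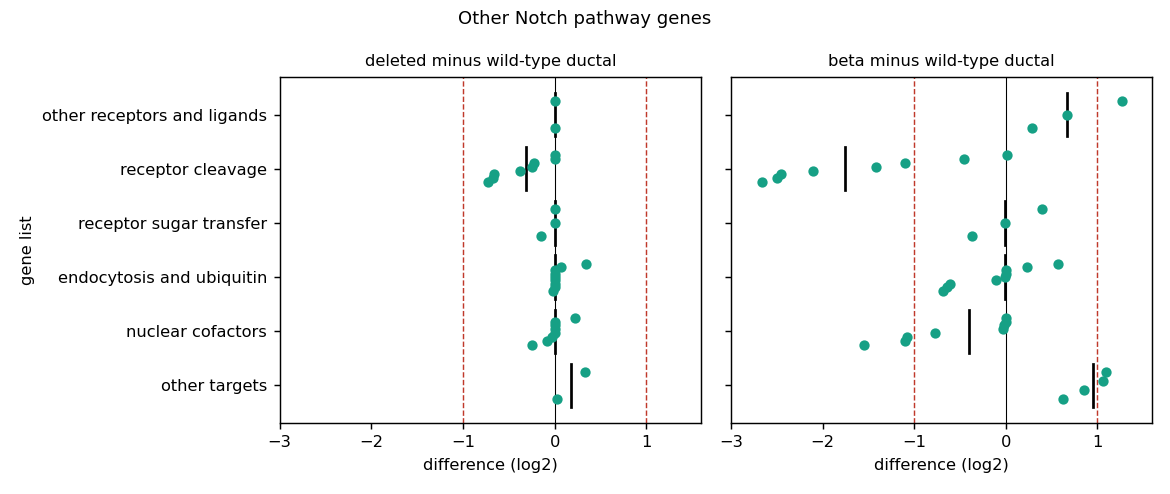
Differences in log2 level of other Notch pathway genes above the floor, by list, for Fbw7-deleted minus wild-type ductal and beta minus wild-type ductal cells; each point is a gene, black bars are list medians and dashed lines mark 2-fold. Receptor cleavage genes have medians of -0.32 and -1.76, and the 4 other target genes in the beta cell comparison lie from 0.63 to 1.09, of which Hes2, Hes7 and Heyl entered only through their beta cell level.

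Of 7 further target genes, 4 entered the comparison of beta with wild-type ductal cells. Hes2, Hes7 and Heyl did so only through their beta cell level, so that they had to be higher there, and no count over this list alone is given. For all genes the median difference was 0.22 at mean levels from 5 to 5.5, 0 from 5.5 to 6 and -0.37 from 6 to 7. The mean levels of Hes2, Hes7 and Heyl lie from 5.5 to 6, and that of Hes5 from 6 to 7. Hes2 was at least 2.07-fold and Hes7 at least 2.05-fold higher, taken against the floor because their ductal levels lay below it; they read 6.29 and 6.27 in beta cells against 5.20 and 5.21 in wild-type ductal cells. Hes5 read 6.39 in beta cells, 5.79 in Fbw7-deleted and 5.76 in wild-type ductal cells. Heyl read 5.93 in beta cells, 5.41 in Fbw7-deleted and 5.08 in wild-type ductal cells, and Hes3, Hey2 and Nrarp were below the floor on all 3 arrays. Dlk1, a non-canonical ligand, was 2.40-fold higher in beta cells (6.67) than in either ductal array (5.40), and at least 2-fold higher under each scaling tried.

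Endothelial markers are given beside Hey1 and these target genes: 10 of 12 were above the floor in beta cells and 5 of 12 in each ductal array. Their summed intensity nevertheless was 929 in beta cells, 1175 in Fbw7-deleted and 1761 in wild-type ductal cells, most of the ductal sums coming from Cd34 (6.90 in beta cells, 9.54 in Fbw7-deleted and 10.39 in wild-type ductal cells). Pecam1, a defining endothelial gene named here after its values were seen, read 6.73 in beta cells against 4.40 in both ductal arrays. Leukocyte markers were above the floor for 11 of 14 genes in beta cells and 4 of 14 in each ductal array, with summed intensities of 1416, 599 and 852 in beta, Fbw7-deleted and wild-type ductal cells. Their part in the higher levels of Hey1, Hes2 and Hes7 was not tested.

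Nuclear cofactors and regulators of receptor turnover gave little that held, Kat2b in beta against Fbw7-deleted ductal cells apart. Of 8 cofactor genes 3 were at least 2-fold lower in beta cells than in the wild-type ductal array: Hdac1, a histone deacetylase (2.93-fold), and the acetyltransferase genes Kat2b (2.14-fold) and Ep300 (2.11-fold), where 25.8% of all genes were 2-fold lower. After quantile normalization 0 of these 8 were 2-fold apart in that comparison. Against Fbw7-deleted ductal cells 2 of 8 were at least 2-fold lower as deposited, beside 23.0% of all genes, and 1, Kat2b, after quantile normalization or trend removal. Kat2b was there at -1.32 as deposited, -1.16 after quantile normalization and -1.04 with the trend removed. Snw1, which encodes an adaptor of the Notch complex, read 7.43 in beta cells, 7.96 in Fbw7-deleted and 8.21 in wild-type ductal cells. Its difference of -0.78 in beta against wild-type ductal cells turned to 0.36 after quantile normalization. Of 9 genes of endocytosis and ubiquitin transfer 0 were 2-fold apart between beta and wild-type ductal cells. Itch, the gene of a ubiquitin ligase that acts on Notch, read 6.75 in beta cells, 7.78 in Fbw7-deleted and 7.44 in wild-type ductal cells; it was 2.04-fold lower in beta than in Fbw7-deleted ductal cells, and 1.27-fold higher in Fbw7-deleted than in wild-type ones. The difference of Itch in beta against Fbw7-deleted ductal cells was -1.03 as deposited, -0.29 after quantile normalization and -0.15 with the trend removed, and that against wild-type ductal cells turned from -0.69 as deposited to 0.15 and 0.24 under these settings. None of the 3 genes of sugar transfer above the floor was 2-fold apart, and Poglut1, which adds glucose to the receptors, read 5.90 in beta cells, 6.12 in Fbw7-deleted and 6.27 in wild-type ductal cells.

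Genes that act downstream of Notch in the pancreas were mostly below the floor. Of 5 measured, Neurog3, Neurod1, Ptf1a and Cdkn1c, named here after their values were seen, were below it on all 3 arrays. Some beta cell markers, such as Pdx1 (5.14) and Pcsk1 (4.73), were below the floor in beta cells too, while 8 of 14 were above it. A level below the floor thus does not show that a gene was not expressed. Neurog3 read 4.25 in beta cells and 4.20 in both ductal arrays. Sox9, a duct transcription factor gene tied to Notch in the mouse pancreas, read 6.51 in beta cells, 8.17 in Fbw7-deleted and 7.29 in wild-type ductal cells. Sox9 was thus 1.84-fold higher in the deleted cells, on the arrays where Rbpj was lower and Hes1 identical.

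Markers of other cell types also differed between the arrays on which Rbpj and Notch2 did. Mesenchymal markers above the floor numbered 11 of 13 on every array, and their summed intensity was 2254 in beta cells, 7671 in Fbw7-deleted and 11846 in wild-type ductal cells, the order of Rbpj. Among them Col1a2, a collagen gene, read 6.48 in beta cells, 9.55 in Fbw7-deleted and 10.88 in wild-type ductal cells. Dcn, the mesenchymal marker of highest level, read 9.92 in beta cells, 11.76 in Fbw7-deleted and 11.98 in wild-type ductal cells. Not every marker had this order: Pdgfrb, Des and Postn were lowest in Fbw7-deleted ductal cells, and Rgs5 was lowest in wild-type ones. Mesothelial markers had sums close together in the ductal arrays and far below them in beta cells, as given above, which is the pattern of Notch2. Single markers did differ between the ductal arrays: 7 were lower and 8 higher in Fbw7-deleted cells, from -0.74 to 0.75 on the log2 scale. Msln, the mesothelin gene, read 5.53 in beta cells, 10.73 in Fbw7-deleted and 10.61 in wild-type ductal cells. Igfbp5, the mesothelial marker of highest level, read 6.49 in beta cells, 10.92 in Fbw7-deleted and 10.18 in wild-type ductal cells. Duct markers had summed intensities of 1558 in beta cells, 8357 in Fbw7-deleted and 3973 in wild-type ductal cells, so between the ductal arrays they went the opposite way to Rbpj. Acinar markers, with 20 of 21 above the floor in beta cells, 20 in Fbw7-deleted and 19 in wild-type ductal cells, had the highest sums, 65462 in beta cells, 45957 in Fbw7-deleted and 17672 in wild-type ductal cells, the reverse of the order of Rbpj. The part of these cell types in the Rbpj and Notch2 levels was not tested.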

How the data were processed

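Per the labels' protocols, RNA (18 ng) of 30000 sorted cells per array was amplified, converted and labelled with biotin using NuGEN kits. The deposited values are log2 intensities made by the authors with RMA, per the submitters' processing notes, over 35556 probe sets; no source used here states its version or which arrays it was run on together. RMA ends in a median polish, which with few arrays can give several arrays the same value.

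A platform annotation gave 21789 probe sets 1 gene, 1621 several and 12146 none; 21698 matched a RefSeq gene by ID. The probe set with the highest mean stood for each of 19938 genes. Genes were compared where the higher level passed the 50th percentile of its array (the floor), and 2-fold differences were counted over all genes. Alternatives were no floor, the 75th percentile, 1.5-fold and 4-fold, quantile normalization, centring, a loess trend (span 0.3), averaged probe sets, and levels raised to the floor. Members and lists were chosen with earlier results of these data known. Named are all members, list genes at least 2-fold apart, each list's highest gene, some marker genes and Fbxw7. The counting steps were run on simulated data in which some genes had been set past 2-fold lower, so that run checks the counting only. The tools were statsmodels 0.14.6, pandas 2.3.3, matplotlib 3.10.9 and numpy 2.4.6 under Python 3.11.15.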

Additional observations from a re-analysis of the deposited data

How the results depend on the processing

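With 1 array per group no spread could be estimated, and low levels near the floor carry little above background. The counts of members at least 2-fold apart (2 in each beta cell comparison, 0 between the ductal arrays) changed as follows. At 4-fold they were 0 in both beta cell comparisons, and at 1.5-fold 1 member, Rbpj, was counted between the ductal arrays. After quantile normalization the count was 1 in beta against wild-type and 0 in beta against Fbw7-deleted ductal cells, and the same after removal of the loess trend. With averaged probe sets it was 1 in each. Among other pathway genes 12 were 2-fold apart in each beta cell comparison and 0 between the ductal arrays. The 12 included Hes2 and Hes7, which entered only through their beta cell level. At 1.5-fold the count was 19 in beta against wild-type ductal cells and 3 between the ductal arrays. At 4-fold it was 4 in beta against wild-type and 1 in beta against Fbw7-deleted ductal cells. Counts at another fold differ by construction. Averaging probe sets could change only Rbpj among the members, since each other member has 1 probe set. The second Rbpj probe set read 3.37 on all 3 arrays, so averaging made every Rbpj difference smaller. The cause of the other changes was not tested. Of 270 values of single members under the alternatives, 257 stayed on their side of the threshold, 12 no longer passed it, 1 newly passed it and no called one changed sign. All 12 were values of Notch2 or Rbpj in the beta cell comparisons, the only ones called as deposited. Many of the 257 belong to members with a difference of 0, which had little room to pass the threshold. Many were also fixed by the setting: another floor or fold leaves a difference as it was. Among the members averaging changed only Rbpj, and raising levels to the floor changed only Jag2. Uncalled members that no longer entered at the higher floor were counted as staying. The 257 are therefore no measure of how robust the values are. Quantile normalization moved the median of all genes by 0.20 in beta against wild-type and 0.16 in beta against Fbw7-deleted ductal cells, and the loess trend by 0.13 in beta against wild-type ones. No paired analysis was possible because each group held 1 array.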
